A study of Mus musculus with 24 samples.

Results

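The cerebral cortex of mice that lacked 2 DNA damage response proteins, ATM and APTX, was compared with the cortex of control mice. The comparison holds 10 of the 24 libraries of the series, chosen by their labels: 6 cortex libraries of the double mutant (Atm Nes-cre; Aptx-/-) and 4 cortex libraries that the labels call Control with no further genotype. In the double mutant, Aptx was deleted in every cell, and Atm was deleted by Cre recombinase under the Nestin promoter, so that loss of ATM was restricted to the nervous system. The mice were 10 to 12 months old and of either sex, and whole cortex was taken. The alleles of the controls, and whether any carried Nes-cre, are not given in the labels. Total RNA was sequenced with a strand-specific kit. Levels are in FPKM, fragments mapped to a gene after scaling for the length of its transcript and for the size of the library.

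ATM is a protein kinase that is activated at double-strand breaks and phosphorylates p53, CHK2 and many other proteins. APTX (aprataxin) removes adenylate groups left at DNA ends by failed ligation, and works with XRCC1 in the repair of single-strand breaks. In humans, loss of ATM causes ataxia telangiectasia and loss of APTX causes ataxia with oculomotor apraxia, disorders in which the cerebellum degenerates while the cortex is less affected. The cortex is built of excitatory glutamatergic neurons in layers, local inhibitory interneurons, and glia (astrocytes, microglia and the myelinating oligodendrocytes). A dissected cortex can also carry white matter and small amounts of thalamus, hypothalamus, choroid plexus or meninges.

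Some properties of the libraries followed the genotype. The codes in the library names form one series for the double mutants and another for the controls, so genotype and library series cannot be told apart. The FPKM columns of double mutants 1 to 5 were written with few digits, whereas 98.6% or more of the values of double mutant 6 and of the controls had more than 10 digits, so these columns were produced in different ways. Summed FPKM without Gm10654, a gene that took over 50% of the sum of control 4, was 249147 to 256459 in double mutants and 232311 to 239565 in controls. Gm10654 itself was at 4221, 7289, 2951 and 322070 FPKM in controls 1 to 4, and at 0.0133 to 1.83 FPKM in double mutants. Genes at 1 FPKM or more numbered 12427 to 12649 in double mutants and 12655 to 12774 in controls. Read depth is unknown. Pairs of libraries correlated across genes at r = 0.988 to 0.993 within double mutants, 0.989 to 0.994 within controls, and 0.967 to 0.981 between the genotypes. The first principal component held 55.8% of the variance and separated the genotypes, with double mutant 6 at -11.9, among the other double mutants at -8.72 to -18.2, and the controls at 17.4 to 21.5. The cortical marker Neurod6 was at 26.6 to 43.3 FPKM in double mutant and 16.9 to 20.2 FPKM in control cortex, and at 0.439 to 2.70 FPKM in cerebellar libraries. Gabra6, which marks cerebellar granule cells, was at 0.0530 to 1.003 FPKM in double mutants and 0.309 to 15.2 FPKM in controls. The Y-linked gene Ddx3y was expressed in double mutants 2, 3, 5 and, at a lower level, 6, and was near 0 in double mutants 1 and 4 and in all 4 controls, so genotype and sex were unbalanced.

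The targeted genes were examined first. Aptx, on chromosome 4 (chr4:40629415-40650227, mm9), was at 2.53, 2.68 and 3.002 FPKM (lowest, median and highest) in double mutants, against 4.51, 4.44, 4.53 and 4.26 FPKM in the 4 controls. Every double mutant was below every control, and the double mutants averaged 61.0% of the control level. The log2 fold change was -0.55 (SE 0.05, adjusted p = 1.6e-05). All fold changes here are double mutant minus control on log2(FPKM + 1), which understates changes of low genes, and adjusted p-values are from limma with Benjamini-Hochberg adjustment over all genes tested. The p-values measure the spread between these libraries, since nothing in the labels says more of how the mice were sampled. Atm (chr9:53247254-53344845) was at 5.31, 5.70 and 6.02 FPKM in double mutants, against 5.28, 5.61, 5.18 and 5.03 FPKM in controls. The groups overlapped, and the difference of 0.09 (SE 0.05) did not pass the test (adjusted p = 0.16). The deleted part of each gene cannot be read from a value per gene. Of 60 tested genes within 3 Mb of Aptx, 13 were higher and 4 lower, with a median log2 fold change of 0.05. Of 49 tested genes within 3 Mb of Atm, 7 were higher and 9 lower, with a median of -0.03. By share, 28.3% of the genes near Aptx and 32.7% of those near Atm passed the test, beside 38.8% of all genes tested.

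**Figure D1:**
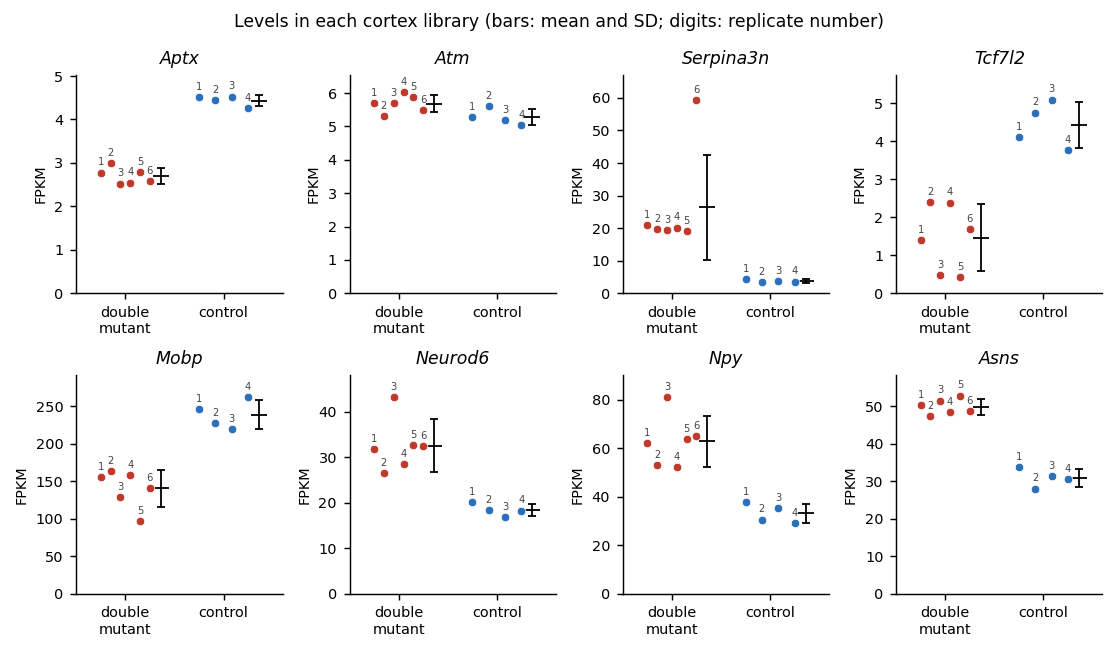
FPKM of 8 genes in each cortex library, with 6 double mutants on the left and 4 controls on the right of each panel and bars at the group means. Aptx, Tcf7l2 and Mobp are lower in every double mutant than in any control, Serpina3n, Neurod6, Npy and Asns are higher, and Atm overlaps.

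Among 12814 genes at 1 FPKM or more in at least 4 of the 10 libraries, 4970 (38.8%) passed an adjusted p of 0.05. Of all genes tested, 3113 (24.3%) were higher and 1857 (14.5%) lower in the double mutant. The changes were small: the median size among called genes was 0.27 on the log2 scale, and 100 genes (0.78%) also exceeded a log2 change of 1, with 53 higher and 47 lower. In 3472 genes (27.1%) the 6 double mutants and the 4 controls did not overlap, 2270 higher and 1202 lower. The balance of directions depended on scaling. Of the called genes, 62.6% were higher with FPKM as deposited, 49.3% after quantile normalisation and 50.7% after the library medians were equalised. Counts after quantile normalisation are therefore given below beside many of the lists with a median near 0. With Ddx3y added to the fit as a measure of sex, 2340 genes were called. The 2 double mutants without Y transcripts, set alone against the controls, gave 2055. These fits use more terms or fewer libraries and so have less power to call a gene. Their lower counts alone do not measure a part of sex.

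**Figure D2:**
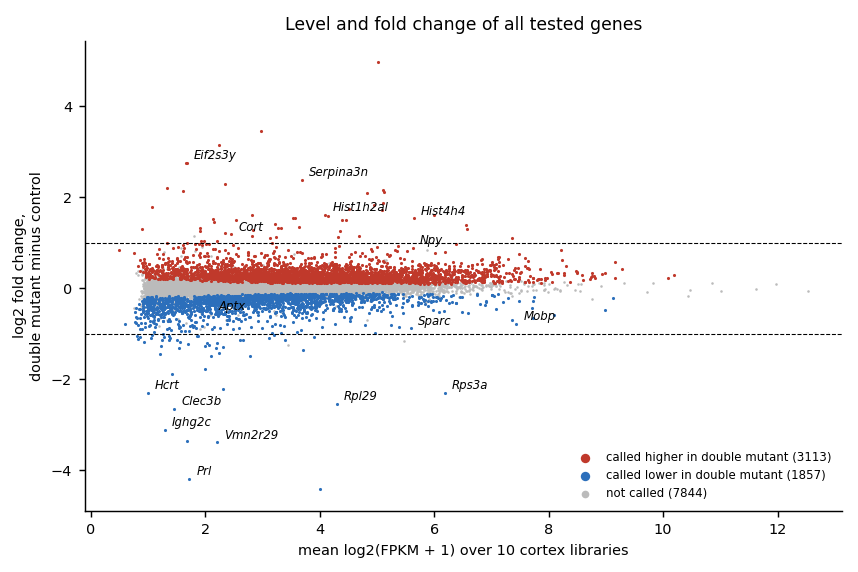
Log2 fold change (double mutant minus control) of each tested cortex gene against its mean level, log2(FPKM + 1), with called genes coloured and selected genes named. Most of the 4970 called genes lie within 1 log2 unit of no change.

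Genes with transcripts of differing length were not affected alike. Among the fifth of genes with the shortest transcripts, 33.1% were higher and 9.75% lower, whereas among the fifth with the longest transcripts 14.0% were higher and 22.1% lower. In the fifth of lowest GC content 15.2% were higher and 17.4% lower, against 31.6% and 11.6% in the fifth of highest GC content. Across genes, which are not independent replicates, Spearman's rho of the fold change was -0.21 with transcript length and 0.15 with GC content. The part of length and base composition in the results below was not tested.

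Among characterised genes the largest falls were led by a hormone of the pituitary. Predicted genes with no known function reached further in both directions, with Gm17545 at -4.42 and Gm10800 at 4.98, both named after their values were seen. Prl, which encodes prolactin, was listed at 0 in 5 double mutants and at 0.206 FPKM in double mutant 3, against 5.76, 62.7, 3.13 and 70.6 FPKM in controls (log2 fold change -4.19, SE 0.67, adjusted p = 0.00043). The controls differed widely among themselves, but each was above every double mutant. In cerebellum Prl was at 0 to 3.51 FPKM in double mutants and 5.82 to 116 FPKM in controls (-4.24, adjusted p = 0.00027). Its effect differed between the tissues by 0.04 (SE 1.10), which did not pass the test (adjusted p = 0.98). Hcrt, the hypothalamic neuropeptide hypocretin, was at 0, 0.0743 and 0.105 FPKM in double mutants and at 3.59, 5.06, 6.03 and 2.72 FPKM in controls (-2.30, adjusted p = 3.2e-07). Ighg2c, an immunoglobulin heavy chain gene, was at 0, 0.0269 and 0.0897 FPKM in double mutants and at 6.53, 9.70, 12.3 and 5.04 FPKM in controls (-3.11, adjusted p = 9.8e-08). These 3 genes belong to cells other than cortical neurons and glia. They were below 1 FPKM in every double mutant, so they passed the filter only through the 4 controls. Their detection in every control was therefore fixed by the filter, as was that of Clec3b. Clec3b, which encodes the plasminogen-binding protein tetranectin, was at 0.132, 0.300 and 0.611 FPKM in double mutants, against 2.82, 9.94, 7.59 and 12.1 FPKM in controls (-2.65). Fcrls, a marker of microglia, was at 0.688, 1.62 and 2.13 FPKM in double mutants, against 6.38, 6.02, 5.57 and 13.4 FPKM in controls (-1.77, adjusted p = 6.1e-05).

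Prkcd, a protein kinase C of thalamic neurons, was at 2.49, 9.87 and 18.6 FPKM in double mutants and at 24.5, 20.9, 23.1 and 19.7 FPKM in controls (-1.36, adjusted p = 0.029). With Ddx3y as covariate its change was -0.52 and was not called (adjusted p = 0.51). The call was also lost without a filter, with robust fitting, and when any 1 control was left out (adjusted p between 0.052 and 0.066). The 15 characterised genes with the largest falls also held Vmn2r29 and Vmn1r90, which encode vomeronasal receptors, Eps8l1, Zfp772 and Tmc4. All 5 lie in the first 20 Mb of chromosome 7. Eps8l1 and Tmc4 were below 1 FPKM in every double mutant and passed the filter only through the controls. Vmn2r29 was at 0.416, 0.599 and 1.84 FPKM in double mutants, against 16.4, 6.62, 18.7 and 48.0 FPKM in controls (-3.39). Of 120 tested genes in that stretch, a region chosen after its values were seen, 15.8% were lower and 34.2% higher, against 14.5% and 24.2% elsewhere.

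A pair of ribosomal protein genes fell in both tissues. Rpl29 was at 5.68, 9.02 and 11.1 FPKM in double mutants and at 55.2, 55.1, 54.9 and 57.4 FPKM in controls (log2 fold change -2.54, adjusted p = 7.9e-08). Rps3a was at 35.7, 37.6 and 39.2 FPKM in double mutants, against 151, 179, 165 and 278 FPKM in controls (-2.30, adjusted p = 1e-07). In cerebellum the log2 fold change was -3.18 for Rpl29, and its effect differed between the tissues by 0.64 (SE 0.17, adjusted p = 0.009). For Rps3a it was -2.26 in cerebellum, a difference of -0.04 that did not pass the test (adjusted p = 0.92). Processed copies of ribosomal protein genes, which share reads with their parent genes, moved more often in the other direction: of 24 tested copies 13 were higher and 1 lower (median 0.35), whereas of their 20 tested parents 4 were higher and 8 lower (median -0.09). Rpl9-ps4 and Rpl10-ps3, both such copies, were among the abundant genes with the largest rises, at 0.90 and 0.84. The part of read sharing in these values was not tested.

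Serpina3n, a serine protease inhibitor that reactive astrocytes secrete, had the largest rise among characterised genes that are not Y-linked. It was at 19.1, 19.99 and 59.4 FPKM in double mutants, against 4.48, 3.36, 3.71 and 3.61 FPKM in controls (log2 fold change 2.38, SE 0.26, adjusted p = 2.8e-05). Double mutant 6 stood apart at 59.4 FPKM, and with any 1 library left out the change was between 2.13 and 2.45. The lowest double mutant was 4.27 times the highest control. Of the other 11 characterised genes with the largest rises, 3 were Y-linked (Eif2s3y, Uty and Kdm5d), all near 0 in the controls and in double mutants 1 and 4, and 3 were histone genes. Hist1h2al was at 22.9, 26.3 and 28.7 FPKM in double mutants and at 8.68, 8.89, 9.93 and 4.46 FPKM in controls (1.62). Hist4h4 was at 61.2, 79.6 and 84.4 FPKM in double mutants, against 19.8, 20.4, 44.9 and 22.6 FPKM in controls (1.54). Cort, the neuropeptide cortistatin of cortical interneurons, was at 4.03, 7.28 and 9.20 FPKM in double mutants and at 1.69, 2.10, 2.66 and 3.16 FPKM in controls (1.19, adjusted p = 0.00034). Rtn4rl2, a Nogo receptor homologue on neurons, was at 3.88, 5.13 and 6.40 FPKM in double mutants and at 2.05, 2.57, 1.82 and 1.67 FPKM in controls (1.03).

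Among abundant genes, those of at least 20 FPKM on average, Sparc, a secreted matricellular protein of glia and vessels, was at 27.0, 37.1 and 50.7 FPKM in double mutants, against 65.6, 63.5, 68.9 and 77.4 FPKM in controls (-0.89, adjusted p = 0.00052). Dusp14, a phosphatase of MAP kinases, was at 19.9, 25.4 and 28.3 FPKM in double mutants, against 12.8, 14.3, 12.8 and 11.1 FPKM in controls (0.93, adjusted p = 1.4e-05). Of 2747 abundant genes 928 were called higher and 163 lower without overlap of the groups. Over all 12814 genes tested, called or not, 2270 were higher and 1202 lower without overlap. The balance of directions depended on scaling, as given above.

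Marker lists of cell types and regions were then counted, and among lists of at least 8 tested genes the largest shares called lower were in markers of thalamus and of oligodendrocytes. In bulk tissue, fewer cells of a type and less RNA per cell cannot be told apart. Counts of these and later lists in cortex are to be read beside the 24.3% higher and 14.5% lower of all genes tested. Of 17 tested thalamic markers, 14 were lower and none higher (median -0.66). Their summed level was 84.4 to 158 FPKM in double mutants and 186 to 205 FPKM in controls, and double mutants 3 and 5 had the lowest sums. Tcf7l2, a transcription factor of thalamic neurons, was at 0.435, 1.55 and 2.40 FPKM in double mutants, against 4.12, 4.75, 5.10 and 3.76 FPKM in controls (-1.22, adjusted p = 0.0015). Slc17a6, the vesicular glutamate transporter VGLUT2 used by thalamic projection neurons, was at 6.97, 9.36 and 17.8 FPKM in double mutants and at 21.4, 22.5, 24.0 and 21.7 FPKM in controls (-1.07, adjusted p = 0.0013). With Ddx3y as covariate neither passed the test, Tcf7l2 at -0.89 (adjusted p = 0.054) and Slc17a6 at -0.74 (adjusted p = 0.051). In cerebellum Tcf7l2 changed by -0.95 and Slc17a6 by -1.34 (adjusted p = 0.0028 and 0.00029). Neither difference between the tissues passed the test of the interaction term described below (adjusted p = 0.57 and 0.60). Of 15 thalamic markers tested in both tissues, 1 had a more positive and 7 a more negative effect in cortex. Their median was -0.66 in cortex and -0.13 in cerebellum. Lef1, a TCF family factor, was at 0.747, 1.38 and 1.81 FPKM in double mutants and at 3.45, 3.29, 2.81 and 3.21 FPKM in controls (-0.85). Adarb1, an RNA-editing adenosine deaminase, fell less, to 24.3, 27.0 and 30.3 FPKM in double mutants, against 36.1, 38.5, 39.9 and 37.2 FPKM in controls (-0.47). Without double mutants 3 and 5, 13 of the 17 were lower, with a median of -0.41. With double mutants 1 and 4 alone 10 were lower, and the median was again -0.41.

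Of 20 oligodendrocyte markers, 15 were lower and none higher (median -0.40). Mobp, a structural protein of myelin, was at 96.9, 148 and 163 FPKM in double mutants, against 247, 227, 220 and 262 FPKM in controls (-0.78, SE 0.12, adjusted p = 0.00038). Mbp, myelin basic protein, was at 120, 193 and 212 FPKM in double mutants, against 257, 286, 295 and 275 FPKM in controls (-0.65, adjusted p = 0.0024, and -0.44, adjusted p = 0.084, with Ddx3y as covariate). Gjb1, a gap junction protein, and Cryab, a small heat shock protein, fell by 0.88 and 0.86. Opalin, a paranodal myelin protein, overlapped between the groups, at 7.43, 8.93 and 11.5 FPKM in double mutants and 6.08, 9.39, 7.11 and 11.5 FPKM in controls. The summed level of the list was 670 to 1073 FPKM in double mutants and 1254 to 1399 FPKM in controls. Without double mutants 3 and 5 the count was 11 and the median -0.28, and with double mutants 1 and 4 alone the count was 8 and the median -0.22. Of 15 precursor markers, 1 was higher and 4 were lower (median -0.13).

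Other regions at the edge of a cortical dissection were measured in the same way. Of 10 choroid plexus markers 6 were lower and none higher (median -0.51), while Ttr, the most abundant of them, overlapped at 189 to 355 FPKM in double mutants and 269 to 316 FPKM in controls. Of 18 markers of hypothalamus and pituitary only 5 were tested, and 9 never reached 1 FPKM. Of the 5 tested 4 were lower, Prl and Hcrt among them, and Prl was lower in cerebellum as well. Prl and Hcrt passed the filter only through the controls, so this count was in part set by the filter. Trh, also called lower, overlapped between the groups. Its call was lost when any 1 control was left out (adjusted p up to 0.093) and with Ddx3y as covariate (0.45). Of 18 striatal markers 1 was higher and 4 lower (median -0.12), and of 15 hippocampal markers 6 were higher and 3 lower (median 0.13). Wfs1, the Wolfram syndrome gene and a marker of the hippocampus, was at 14.3, 15.2 and 18.6 FPKM in double mutants, against 11.1, 9.40, 10.4 and 7.51 FPKM in controls (0.66, adjusted p = 0.00017). Of 16 meningeal markers 4 were higher and 1 lower (median 0.25), and of 24 vessel markers 6 were higher and 5 lower (median 0.09). Of 8 blood markers 4 were higher. Hba-a1, an alpha globin, was at 93.4, 126 and 218 FPKM in double mutants and at 26.4, 42.3, 59.2 and 107 FPKM in controls. Its groups overlapped (1.39, adjusted p = 0.0056). No blood marker was called with double mutants 1 and 4 alone, where the median of the list was 0.43, beside 0.60 with all double mutants. The part of tissue makeup in the other results was not tested.

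**Figure D3:**
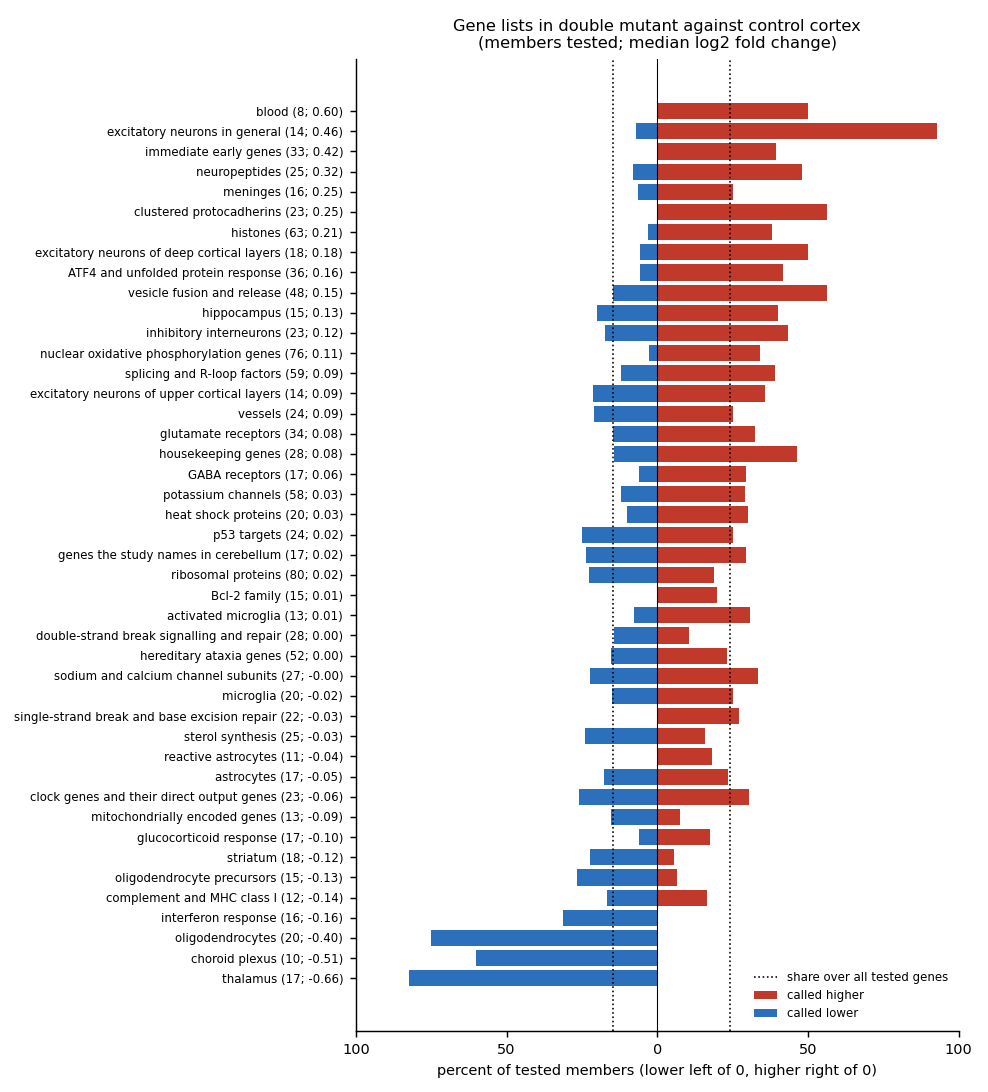
Percent of the tested members of each gene list that were called higher (right of 0) or lower (left of 0) in double mutant cortex, for lists with at least 8 tested genes. Thalamic and oligodendrocyte markers were called lower in 14 of 17 and 15 of 20, and general excitatory markers higher in 13 of 14.

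Markers of excitatory neurons lay on the other side. Of 14 general excitatory markers 13 were higher, and the one that fell was Slc17a6, described above with the thalamus. Slc17a7, the vesicular glutamate transporter VGLUT1 of cortical neurons, was at 124, 152 and 167 FPKM in double mutants, against 113, 97.1, 97.6 and 93.0 FPKM in controls (0.59, SE 0.08, adjusted p = 0.00011). Neurod6, a transcription factor of pyramidal neurons, was at 26.6, 32.2 and 43.3 FPKM in double mutants, against 20.2, 18.4, 16.9 and 18.3 FPKM in controls (0.77). Nrgn, a calmodulin-binding protein of dendritic spines, was at 167, 220 and 275 FPKM in double mutants and at 145, 126, 130 and 121 FPKM in controls (0.75). The summed level of the list was 959 to 1143 FPKM in double mutants and 698 to 816 FPKM in controls, and its median log2 fold change was 0.46, beside 0.03 over all genes tested. Layer markers were less uniform. Of 18 deep layer markers 9 were higher and 1 lower (median 0.18). Rprm, a marker of layer 6, was at 16.3, 19.8 and 21.4 FPKM in double mutants and at 12.3, 11.7, 8.99 and 11.4 FPKM in controls (0.76, adjusted p = 4.5e-05). Of 14 upper layer markers 5 were higher and 3 lower (median 0.09). Cux2, a homeobox factor of upper layers, was higher by 0.36, whereas Rorb, a nuclear receptor of layer 4, was at 7.51, 8.71 and 9.54 FPKM in double mutants, against 12.3, 12.6, 11.6 and 11.9 FPKM in controls (-0.44, adjusted p = 9.3e-05).

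Of 23 interneuron markers 10 were higher and 4 lower (median 0.12), with 9 and 6 after quantile normalisation. Sst, somatostatin, was at 153, 164 and 191 FPKM in double mutants, against 108, 98.4, 113 and 95.7 FPKM in controls (0.68, SE 0.06, adjusted p = 1.2e-05). Npy, neuropeptide Y, was at 52.3, 63.0 and 81.1 FPKM in double mutants, against 37.6, 30.6, 35.4 and 29.0 FPKM in controls (0.90, adjusted p = 6.6e-05). Cck, cholecystokinin, and Vip, vasoactive intestinal peptide, were higher by 0.68 and 0.48, with no overlap. Gad1, an enzyme that makes GABA, was at 74.0, 83.2 and 89.5 FPKM in double mutants and at 81.0, 79.2, 77.8 and 75.5 FPKM in controls (0.05, adjusted p = 0.45). Pvalb, the calcium buffer of fast-spiking interneurons, was at 33.1, 37.1 and 43.4 FPKM in double mutants and at 36.5, 39.5, 44.4 and 44.5 FPKM in controls (-0.15, adjusted p = 0.13), and after quantile normalisation it was called lower at -0.26 (adjusted p = 0.022). Kcnc1, the Kv3.1 potassium channel of those cells, was lower by 0.36, and its groups did not overlap.

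Over 25 neuropeptide and granin genes, some of them also interneuron markers, 12 were higher and 2 lower (median 0.32). Their summed level was 888 to 1009 FPKM in double mutants and 633 to 720 FPKM in controls. Chgb, secretogranin 1 of dense-core vesicles, was at 126, 134 and 144 FPKM in double mutants, against 94.6, 90.5, 87.2 and 74.2 FPKM in controls (0.63, adjusted p = 1.7e-05). Vgf, a precursor of secreted peptides, was at 22.98, 28.7 and 31.1 FPKM in double mutants, against 17.8, 15.6, 17.3 and 13.6 FPKM in controls (0.76). Penk, proenkephalin, was at 48.3, 71.3 and 85.0 FPKM in double mutants and at 67.5, 70.2, 74.5 and 63.7 FPKM in controls (-0.01, adjusted p = 0.97).

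**Figure D4:**
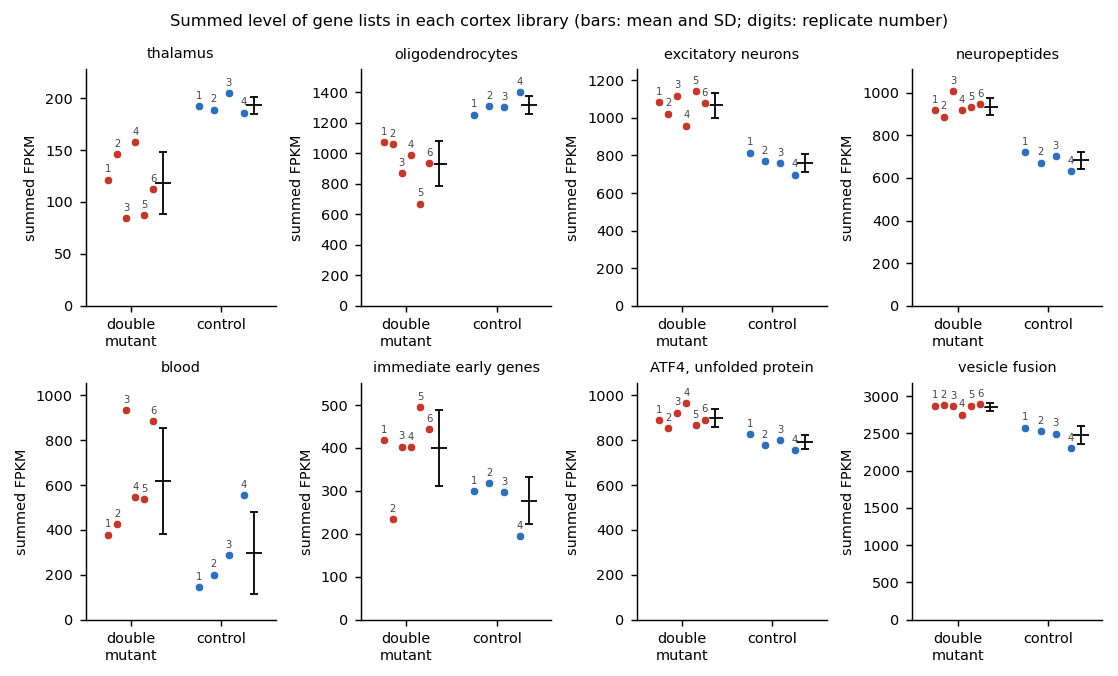
Summed FPKM of 8 gene lists in each cortex library, double mutants on the left and controls on the right of each panel. Sums of thalamic markers (84.4 to 158 in double mutants, 186 to 205 in controls) and of oligodendrocyte markers are lower in every double mutant, and sums of general excitatory markers (959 to 1143 in double mutants, 698 to 816 in controls) are higher.

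Genes that neuronal activity induces were higher in part, with a wide spread in both groups. Of 33 tested immediate early and activity genes 13 were higher and none lower (median 0.42). The share called was 39.4%, beside 38.8% of all genes tested. In 3 of the 33 the groups did not overlap, beside 27.1% of all genes tested. The summed level overlapped at 234 to 495 FPKM in double mutants and 196 to 319 FPKM in controls. Bdnf, a neurotrophin, was at 5.04, 7.45 and 7.91 FPKM in double mutants, against 4.25, 4.96, 3.91 and 3.70 FPKM in controls (0.63, adjusted p = 0.00062). Nptx2, a secreted pentraxin of excitatory synapses, was at 8.10, 9.44 and 10.7 FPKM in double mutants, against 6.28, 6.24, 4.93 and 5.198 FPKM in controls (0.65). The fast transcriptional responders were more variable. Egr1 was at 7.85, 15.9 and 17.9 FPKM in double mutants and at 8.18, 9.86, 9.15 and 4.80 FPKM in controls (0.80, adjusted p = 0.0087). Fos was at 3.99, 16.4 and 21.7 FPKM in double mutants and at 9.52, 11.2, 9.25 and 2.99 FPKM in controls (0.76, adjusted p = 0.14). Arc was at 14.97, 47.0 and 63.0 FPKM in double mutants and at 30.8, 30.3, 32.2 and 15.2 FPKM in controls (0.62, adjusted p = 0.14). Double mutant 2 and control 4 had the lowest sums of their groups. Without double mutant 2 both genes were called, Fos at 1.06 (adjusted p = 0.0083) and Arc at 0.90 (adjusted p = 0.0034). The cAMP response element TGACGTCA, searched on both strands from 250 bases before to 50 after the gene start, was in none of 9 promoters of members called higher, in 2 of 17 other members and in 2.03% of 27025 promoters.

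The list of ATF4 and the unfolded protein response was counted next. ATF4 is a transcription factor whose translation rises when eIF2 is phosphorylated, and it drives genes for amino acid synthesis, amino acid transport and tRNA charging through C/EBP-ATF response elements. Of 36 tested genes of ATF4 and the unfolded protein response 15 were higher and 2 lower (median 0.16). Asns, asparagine synthetase, was at 47.3, 49.5 and 52.8 FPKM in double mutants, against 33.8, 28.0, 31.3 and 30.7 FPKM in controls (0.67, SE 0.05, adjusted p = 2.1e-06). Gars, the glycyl-tRNA synthetase, was at 49.3, 50.1 and 51.6 FPKM in double mutants, against 37.0, 35.0, 37.3 and 34.5 FPKM in controls (0.47, SE 0.04, adjusted p = 2.2e-06). In both genes the 6 double mutants lay close together and well clear of all controls.

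Atf4 itself was at 45.6, 51.9 and 56.2 FPKM in double mutants, against 34.9, 38.3, 41.3 and 37.7 FPKM in controls (0.44, adjusted p = 0.00017). Chac1, which degrades glutathione, was at 2.49, 2.96 and 3.22 FPKM in double mutants, against 1.62, 2.25, 1.58 and 1.997 FPKM in controls (0.46). Nupr1, a stress-induced nuclear protein, was at 1.87, 1.98 and 2.33 FPKM in double mutants, against 1.45, 1.49, 1.17 and 1.26 FPKM in controls (0.37). Slc7a5, a transporter of large neutral amino acids, and Wars, the tryptophanyl-tRNA synthetase, were higher by 0.56 and 0.35. Ddit3, which encodes the stress factor CHOP, went the other way, at 7.73, 9.66 and 15.4 FPKM in double mutants, against 18.0, 18.4, 19.7 and 15.9 FPKM in controls (-0.70, adjusted p = 0.0048). Hspa5, the endoplasmic reticulum chaperone BiP, did not pass the test (0.13, adjusted p = 0.45). The summed level of the list was 855 to 965 FPKM in double mutants and 756 to 828 FPKM in controls.

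Promoters of this list were searched for the C/EBP-ATF response element TGATGNAA on both strands, from 250 bases before to 50 after the gene start (RefSeq, GRCm38.p6, a different build from the expression table). A promoter was available for 30 of the 36 tested members, among them 11 of the 15 called higher. The element was in 4 of 11 promoters of members called higher, in 3 of 19 promoters of other members and in 4.51% of 27025 promoters. Vldlr, one of the other members with the element, was called lower. The list was made of genes of this response, so the share of all promoters is not an independent comparison. A match is a description of the sequence and was not measured as a bound site. The 4 matches in genes called higher are shown on the strand of the gene, 5′ to 3′, with the element in capitals. They begin 23, 193, 110 and 30 bases before the gene start in Asns, Chac1, Nupr1 and Gars. In Chac1, Nupr1 and Gars the element lies on the opposite strand, so that its reverse complement is printed.
Asns, chr6:7693214-7693243, minus strand: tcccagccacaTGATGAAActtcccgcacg
Chac1, chr2:119351038-119351067, plus strand: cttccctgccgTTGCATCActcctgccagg
Nupr1, chr7:126625562-126625591, minus strand: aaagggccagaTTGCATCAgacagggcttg
Gars, chr6:55037960-55037989, plus strand: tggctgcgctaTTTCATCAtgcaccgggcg

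DNA repair genes were counted next. Of 22 tested genes of single-strand break and base excision repair 6 were higher and none lower, with 4 higher and 3 lower after quantile normalisation (median -0.03, and -0.02 after normalisation). Xrcc1, the scaffold protein to which APTX binds, was at 7.36, 7.84 and 8.09 FPKM in double mutants, against 5.90, 6.20, 6.03 and 6.18 FPKM in controls (0.31, SE 0.04, adjusted p = 0.00017). Of 28 genes of double-strand break signalling and repair 3 were higher and 4 lower (median 0.00), with 3 and 6 after quantile normalisation. Nbn, a subunit of the MRN complex that recruits ATM to breaks, was at 8.98, 9.38 and 9.51 FPKM in double mutants, against 7.96, 7.61, 7.03 and 6.99 FPKM in controls (0.30, adjusted p = 0.0003).

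Targets of p53, which ATM phosphorylates, moved in both directions: of 24 tested 6 were higher and 6 lower (median 0.02), with 5 and 8 after quantile normalisation. Cdkn1a, the cell cycle inhibitor p21, was at 1.35, 1.97 and 2.41 FPKM in double mutants, against 1.04, 1.24, 1.10 and 0.896 FPKM in controls (0.51, adjusted p = 0.0018). Zmat3, an RNA-binding p53 target, was at 5.71, 6.43 and 6.96 FPKM in double mutants, against 10.99, 10.6, 10.6 and 9.20 FPKM in controls (-0.61, adjusted p = 1.2e-05). Mdm2, the ligase that degrades p53, was at 11.7, 13.3 and 14.0 FPKM in double mutants and at 14.0, 14.4, 14.3 and 12.8 FPKM in controls (-0.07, adjusted p = 0.28), and after quantile normalisation it was at -0.12 (adjusted p = 0.048). Of 15 members of the Bcl-2 family 3 were higher and none lower (median 0.01), with 3 and 1 after quantile normalisation. Of 16 interferon response genes 5 were lower and none higher (median -0.16), and none was called with double mutants 1 and 4 alone (median -0.04). Among them were Bst2, an antiviral membrane protein, at -0.78 and Irf9, a subunit of the interferon-stimulated transcription factor, at -0.32. Of 12 genes of complement and MHC class I 2 were higher and 2 lower (median -0.14), with 2 and 3 after quantile normalisation.

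Lists of glial cells and of their activation held calls in both directions or few calls. Of 20 entries of the reactive astrocyte list 11 were tested, and 2 were higher: Serpina3n, described above, and Gfap, the astrocyte intermediate filament, at 52.8, 55.3 and 68.3 FPKM in double mutants, against 47.8, 38.8, 44.2 and 43.1 FPKM in controls (0.42, SE 0.08, adjusted p = 0.0016). The median of the 11 was -0.04. Of 17 general astrocyte markers 4 were higher and 3 lower (median -0.05), with 3 and 6 after quantile normalisation. Aqp4, the water channel of astrocyte end-feet, was at 0.35 and Fgfr3, a growth factor receptor, at -0.40. Of 20 microglial markers 5 were higher and 3 lower (median -0.02), with 4 and 3 after quantile normalisation. P2ry12, the purinergic receptor of resting microglia, was higher by 0.31, while Fcrls fell as given above. Of 13 tested genes of activated microglia 4 were higher and 1 lower (median 0.01), with 3 and 2 after quantile normalisation.

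Ion channels and receptors gave named genes with clear changes and lists without a common direction. Of 58 potassium channel genes 17 were higher and 7 lower (median 0.03), with 18 and 12 after quantile normalisation. The share called, 41.4%, was near the 38.8% of all genes tested. Kcnj10, the Kir4.1 channel of astrocytes and oligodendrocytes, was at 4.27, 5.68 and 6.02 FPKM in double mutants, against 12.05, 12.2, 13.7 and 13.2 FPKM in controls (-1.11, SE 0.08, adjusted p = 1.4e-06). Of 27 sodium and calcium channel subunits 9 were higher and 6 lower, with 5 and 8 after quantile normalisation. Scn2b, a sodium channel beta subunit, was at 29.4, 31.8 and 32.9 FPKM in double mutants, against 50.7, 39.5, 50.5 and 56.3 FPKM in controls (-0.62). Itpr1, a calcium release channel of the endoplasmic reticulum, was at 95.4, 99.0 and 106 FPKM in double mutants and at 92.7, 91.9, 92.1 and 84.8 FPKM in controls (0.15, adjusted p = 0.017). Its adjusted p was 0.055 without control 4, and after quantile normalisation its change was -0.03.

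Of 34 glutamate receptor genes and their partners 11 were higher and 5 lower (median 0.08), with 6 and 10 after quantile normalisation. Grin2b, a subunit of the NMDA receptor, was at 48.0, 50.1 and 54.2 FPKM in double mutants, against 37.7, 39.0, 37.2 and 33.3 FPKM in controls (0.45, adjusted p = 2.8e-05). Shank3, a scaffold of the postsynaptic density, was at 13.7, 15.7 and 17.2 FPKM in double mutants, against 10.1, 11.2, 10.6 and 8.72 FPKM in controls (0.56). Of 17 GABA receptor genes 5 were higher and 1 lower, with 1 and 3 after quantile normalisation. Of 48 genes of vesicle fusion and release 27 were higher and 7 lower (median 0.15), with 17 and 9 after quantile normalisation. Nsf, the ATPase that takes apart SNARE complexes, was at 192, 200 and 207 FPKM in double mutants, against 156, 148, 144 and 134 FPKM in controls (0.45, adjusted p = 1.5e-05). Stx1a, syntaxin 1A of the presynaptic membrane, was at 47.8, 56.8 and 62.1 FPKM in double mutants, against 40.4, 36.9, 34.1 and 37.2 FPKM in controls (0.60). Sv2c, a synaptic vesicle protein, was lower by 0.71.

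Genes of RNA processing, chromatin and energy metabolism completed the lists. Of 59 splicing and R-loop factors 23 were higher and 7 lower (median 0.09), with 19 and 11 after quantile normalisation. Hnrnpk, an RNA-binding protein of the nucleus, was at 102, 103 and 112 FPKM in double mutants, against 81.7, 81.9, 81.0 and 75.1 FPKM in controls (0.38). Srrm2, a scaffold of nuclear speckles, was at 29.2, 38.0 and 41.4 FPKM in double mutants, against 52.5, 59.5, 57.3 and 49.1 FPKM in controls (-0.55, adjusted p = 0.00046). Of 63 histone genes 24 were higher and 2 lower (median 0.21), the near-identical copies of this family sharing reads. Of 23 clustered protocadherins, surface proteins that give neurons their identity, 13 were higher and none lower (median 0.25). Pcdhb5 was at 3.10, 4.74 and 5.16 FPKM in double mutants, against 1.12, 2.02, 1.77 and 1.48 FPKM in controls (1.04).

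Of 76 nuclear genes of oxidative phosphorylation 26 were higher and 2 lower (median 0.11), with 15 and 7 after quantile normalisation, when the median turned to -0.03. Of 13 mitochondrially encoded genes 1 was higher and 2 lower (median -0.09), with 0 and 4 after quantile normalisation. The complex I subunit mt-Nd5 was at 216, 225 and 258 FPKM in double mutants, against 322, 332, 361 and 366 FPKM in controls (-0.58, adjusted p = 1.9e-05). Of 80 ribosomal protein genes 15 were higher and 18 lower (median 0.02), with 5 and 36 after quantile normalisation. Rpl3 was at 74.0, 81.8 and 88.5 FPKM in double mutants, against 116, 120, 127 and 116 FPKM in controls (-0.55). Genes often used as references differed too: of 28 housekeeping genes 13 were higher and 4 lower, with 7 in each direction after quantile normalisation. Actb, beta actin, was higher by 0.43, Pgk1, a glycolytic kinase, was lower by 0.50, and Gapdh overlapped (-0.08, adjusted p = 0.23) but was called lower after quantile normalisation (-0.21, adjusted p = 0.0031).

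The remaining lists held calls in both directions. Of 52 hereditary ataxia genes 12 were higher and 8 lower (median 0.00), with 7 and 13 after quantile normalisation. The share called, 38.5%, was near the 38.8% of all genes tested. Of 17 genes, mostly ones the study discusses in cerebellum, 5 were higher and 4 lower (median 0.02). After quantile normalisation 2 were higher and 6 lower. The calls included Abhd14a and Atxn10, which the main text of the study does not name. They also included Ube2e2, whose expression the study gives as unaltered in the double mutant. Of 23 clock genes and their direct outputs 7 were higher and 6 lower (median -0.06), with 4 and 8 after quantile normalisation. Of 17 glucocorticoid-responsive genes 3 were higher and 1 lower (median -0.10), with 1 and 3 after quantile normalisation. Of 20 heat shock genes 6 were higher and 2 lower (median 0.03), with 4 and 3 after quantile normalisation, when the median turned to -0.03. Of 25 sterol synthesis genes 4 were higher and 6 lower (median -0.03), with 2 and 6 after quantile normalisation.

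The double-mutant effect in cortex was then set against that in cerebellum, in a fit of 6 double mutant and 4 control libraries of each tissue. Among 12118 genes expressed in both tissues the effect differed for 3257 (26.9%), being more positive in cortex for 1389 and more negative for 1868. The tissues came in separate tables, so only differences of log2 fold changes are compared. The double mutants of both tissues share library codes, and this fit did not pair them. With same-numbered libraries of the tissues paired, the effect differed for 3788 genes. Itpr1 had the largest difference in the positive direction, 2.93 (SE 0.13, adjusted p = 4.3e-12). In cerebellum it averaged 40.3 ± 5.36 FPKM in double mutants and 284 ± 47.9 FPKM in controls (SD, n = 6 and n = 4), a log2 fold change of -2.78, whereas in cortex it averaged 100.1 ± 4.38 FPKM in double mutants and 90.4 ± 3.73 FPKM in controls. Cnih3, an auxiliary subunit of AMPA receptors, was higher in cortex by 0.47 and lower in cerebellum by 2.21. Sst and Vip, higher in cortex, fell by 1.55 and 1.74 in cerebellum, where both were far lower than in cortex. There Sst overlapped, at 1.44 to 11.3 FPKM in double mutants and 6.01 to 15.5 FPKM in controls. Vip was at 0 to 0.758 FPKM in double mutant and 1.36 to 3.46 FPKM in control cerebellum.

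In the opposite direction stood Th, tyrosine hydroxylase of catecholamine synthesis. In cortex it was below 1 FPKM in every double mutant and passed the filter only through the controls. Th averaged 0.588 ± 0.246 FPKM in double mutant cortex and 2.24 ± 0.395 FPKM in control cortex, but 6.43 ± 1.09 FPKM in double mutant cerebellum and 2.49 ± 0.463 FPKM in control cerebellum, so that the effects differed by -2.12 (SE 0.18). Prtg, protogenin, was higher by 2.11 in cerebellum and by 0.22 in cortex, where its call was lost without any of 5 libraries (double mutants 2, 4 and 6 and controls 3 and 4; adjusted p between 0.056 and 0.084). Serpina3n was higher in both tissues, by 2.38 and 2.68, and its difference of -0.30 did not pass the test (adjusted p = 0.55). The SE of this difference was 0.34. Aptx was lower in both tissues, by 0.55 in cortex and 0.33 in cerebellum, with a difference of -0.22 (adjusted p = 0.074).

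By list, shares are to be read beside the 26.9% of all genes whose effect differed. Oligodendrocyte markers differed between the tissues: their median log2 fold change was -0.40 in cortex and 0.22 in cerebellum, and 14 of 20 had a more negative effect in cortex. Of 11 general excitatory markers expressed in both tissues 7 were more positive and 1 more negative in cortex. For 45 potassium channel genes the medians were 0.01 in cortex and -0.25 in cerebellum, with 17 more positive and 4 more negative in cortex. For 45 genes of vesicle fusion and release 14 were more positive and 2 more negative, and for 17 neuropeptides 8 and 1. For 59 splicing and R-loop factors 3 were more positive and 18 more negative in cortex, and for 36 genes of ATF4 and the unfolded protein response 1 and 10. Genes called within both tissues numbered 1990, and 530 of these had opposite signs and a difference that passed the test.

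**Figure D5:**
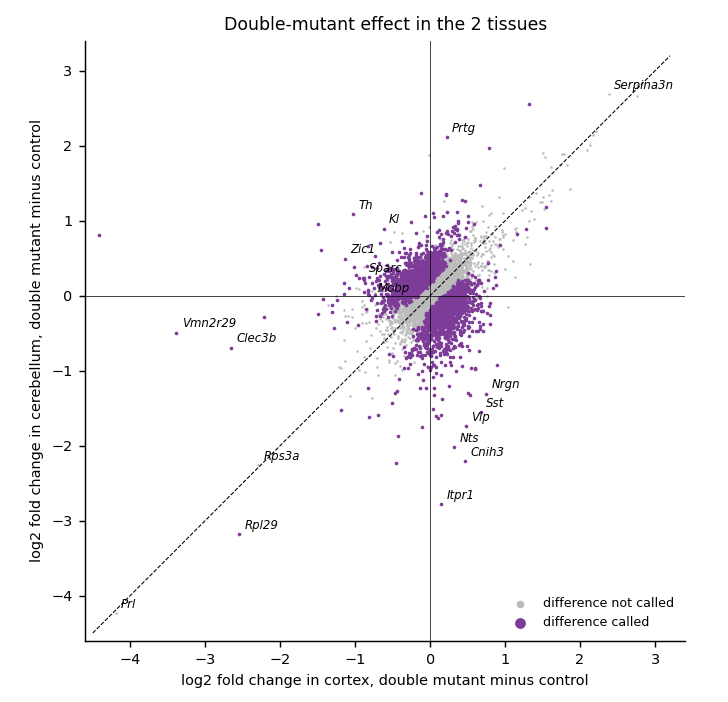
Log2 fold change (double mutant minus control) in cerebellum against that in cortex for 12118 genes tested in both tissues, with genes whose effects differed coloured and selected genes named. Itpr1 (0.15 in cortex, -2.78 in cerebellum) and Th (-1.03 and 1.09) lie far from the diagonal, and Serpina3n (2.38 and 2.68) near it.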

How the data were processed

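Cortex was taken from double mutant and control mice, and RNA was sequenced on an Illumina sequencer. The values used are FPKM per gene as deposited by the authors, who aligned reads to mm9 with BWA 0.5.10 and counted them with HTSeq (version not given in the sources used here). Counts are not used here, so depth per library is unknown and its effect on low genes could not be assessed.

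Samples were grouped by their labels. FPKM were transformed to log2(FPKM + 1), genes at 1 FPKM or more in at least 4 of 10 libraries were kept, Gm10654 was left out, and genotypes were compared with limma 3.58.1 (R 4.3.3, intensity trend, two-sided, Benjamini-Hochberg). The threshold for a call was an adjusted p of 0.05. The fit was tested on simulated data. Tables and plots were made with Python 3.11.15, pandas 2.3.3 and matplotlib 3.10.9. Effects in cortex and cerebellum were compared by an interaction term over 20 libraries.

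Named genes were Atm, Aptx and Itpr1; the 15 lowest and 15 highest fold changes (12 were found higher) among genes past a log2 change of 1 without overlap of the groups; the 10 lowest and 10 highest among called genes of at least 20 FPKM without overlap; up to 4 members of each list by smallest p and members needed for a role; and the 6 lowest and 6 highest interaction terms. Uncharacterised symbols were passed over: 11 lower and 35 higher of 87 genes past a log2 change of 1, and 71 of 1091 abundant genes. The genes and the 46 lists were chosen with earlier results of these data known. Alternatives were other pseudocounts, filters, scalings and variance models, each library left out, a replicate block, Ddx3y as a covariate, and double mutants 1 and 4 alone or 3 and 5 left out.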

Additional observations from a re-analysis of the deposited data

Results flagged for a closer look

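In 34 of 462 pairs of a named gene and a genotype, 1 library stood apart from the others of its genotype by Dixon's test, which chance gives in about 1 of 20 groups. Control 4 held 9 of these and double mutant 3 held 7. In double mutants, Serpina3n was at 59.4 FPKM in library 6, against 21.0 in the next library. Library 3 was highest for Neurod6 (43.3), P2ry12 (19.1), Hist1h2bn (3.87), Prl (0.206) and mt-Nd3 (1463), and lowest for Leng8 (14.3) and Fgfr3 (16.0). Library 4 was highest for Hnrnpk (112), Prkdc (6.40) and Pmch (1.38) and lowest for Wars (19.7). Library 5 was lowest for Bcas1 (22.8) and Rgs9 (9.40), library 1 lowest for Lpl (4.05) and highest for Gbp2 (2.22), library 2 lowest for Bdnf (5.04) and library 6 lowest for Nbn (8.98).

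In controls, library 4 was lowest for Itpr1 (84.8), Klf9 (32.9), Hnrnpk (75.1) and Arc (15.2) and highest for Gm17545 (501), Rpl29 (57.4), Fcrls (13.4), S100a10 (23.2) and Ddx3y (0.0532). Library 3 was highest for Hist4h4 (44.9) and Kdm5d (0.00421) and lowest for Rpl9-ps4 (18.9). Library 2 was highest for Amd2 (5.75) and Tmem90a (5.88) and lowest for Ctsb (54.7), and library 1 was highest for Prlr (6.34). All values are in FPKM, and no cause was tested.

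The double-mutant effect in cortex minus that in cerebellum, tested by the interaction term, was lowest for Vmn2r29 (-2.89), Th (-2.12), Clec3b (-1.96), Prtg (-1.89), Zic1 (-1.63) and Kl (-1.51), the gene of the hormone co-receptor klotho. It was highest for Itpr1 (2.93), Cnih3 (2.67), Nts (2.34), Sst (2.23), Vip (2.22) and Nrgn (2.06). The neuropeptide genes Sst and Vip were lower in double mutant than in control cerebellum and higher in double mutant than in control cortex. Both were low in cerebellum, where the groups overlapped for Sst, as given above. Nts was lower in double mutant cerebellum, and in cortex it did not pass the test (0.32, adjusted p = 0.39), at 0.931 to 6.03 FPKM in double mutants and 2.06 to 2.49 FPKM in controls.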

How the results depend on the processing

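The 4970 calls numbered 4942 and 4944 with pseudocounts of 0.1 and 0.01, 5366 without a filter, 3807 at 5 FPKM or more, 5063 after quantile normalisation, 5133 after equalised medians, and 4056 to 5105 with each library left out. Larger departures came with a replicate block (3051), with Ddx3y as covariate (2340) and with double mutants 1 and 4 alone (2055), the last chosen after seeing the data. These 3 settings use more terms or fewer libraries and so have less power to call a gene. The part of lost power in the lower counts was not tested. Genes also past a log2 change of 1 numbered 100, against 211 and 232 with pseudocounts of 0.1 and 0.01, 64 at 5 FPKM or more, and 93 to 108 with each library left out. Genes whose effect differed between cortex and cerebellum numbered 3257, against 2642 to 3498 with each library left out and 3788 with a replicate block. In cortex, same-numbered libraries of the genotypes did not deviate together (r between -0.15 and 0.02). That check cannot exclude pairing of double mutants with controls, and the labels state none. Between the tissues, the block takes same-numbered cortex and cerebellum libraries as pairs. Double mutants share library codes across the tissues and controls do not. The count of 3257 ignores this pairing.

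Of 215 named genes that were called, 203 were called in the same direction after quantile normalisation, 193 with the replicate block, 161 with Ddx3y as covariate and 160 with double mutants 1 and 4 alone. With Ddx3y as covariate the calls of Ddit3, Bst2, Irf9, P2ry12, Hba-a1 and Vmn1r90 were also lost (adjusted p between 0.061 and 0.21). Changes of sign were Itpr1 to -0.0260 after quantile normalisation, Kdm5d to -0.0127 and Uty to -0.0089 with Ddx3y as covariate, and, though not called, C4b, at -0.33, to 0.0734 with Ddx3y as covariate and to 0.0722 with double mutants 1 and 4 alone. Genes near 0 that were not called also changed sign. After quantile normalisation Gad1 was at -0.0902 and Hspa5 at -0.0011. Opalin was at -0.0268 with Ddx3y as covariate, -0.0213 with double mutants 1 and 4 alone, and -0.0559 to 0.217 with each library left out. Ttr was at 0.133 with the replicate block, 0.144 with Ddx3y as covariate, 0.137 with double mutants 1 and 4 alone, 0.0571 without double mutants 3 and 5, and -0.0810 to 0.09999 with each library left out. Under the same settings Penk was at 0.0801, 0.120, 0.0948 and 0.130, and at -0.0679 to 0.0928. The cause was not tested, except that Kdm5d, Uty and Ddx3y are all Y-linked. Uty and Kdm5d lost their calls without 1 control (adjusted p up to 0.051), Hbb-b1 without control 1 or 2 (up to 0.070), Tdg without double mutant 6, control 2 or control 3 (up to 0.073), and Ifit3 without control 4 (0.055).

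The FPKM give no read numbers, so the precision of low genes such as Prl, Hcrt and Ighg2c in double mutants cannot be stated. Genotype followed the library series and in part sex, which limits what the comparison can separate.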
